A study of Bos taurus with 60 samples.

Results

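ERBB2 and ERBB3, 2 receptor genes of the epidermal growth factor receptor family, and NRG2, which encodes the ligand neuregulin 2, were followed in the bovine mammary gland from late lactation into the dry period. These 3 genes were found by pairing their symbols with assembled loci through the study's supplementary tables, which held symbols for loci ranked high in the study's own comparisons of these samples, and they are 3 of the 25223 loci counted and of the 14714 loci tested. ERBB2 was the locus XLOC_009247 (ENSBTAG00000021798), ERBB3 the locus XLOC_019967 (ENSBTAG00000010444) and NRG2 the locus XLOC_022331 (ENSBTAG00000010689). Each of these loci held a single ENSEMBL gene, so that no neighbouring gene was joined to it by the assembly. The coordinates of the loci were not used here.

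Receptors of this family sit in the cell membrane and signal in pairs. ERBB3 binds neuregulins but has very little kinase activity of its own, whereas ERBB2 is an active kinase with no known ligand, and the pair of ERBB2 with ERBB3 is a strong activator of the phosphatidylinositol 3-kinase pathway. In the mammary gland these receptors are known from the luminal epithelium, where neuregulin signalling takes part in lobuloalveolar growth and lactation. Neuregulin 2 is the less studied relative of neuregulin 1 and binds ERBB3 and ERBB4.

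Mammary biopsies came from 12 multiparous Holstein cows taken 3 days before dry-off (D-3) and then on days 3, 7, 14 and 25 after it (D3 to D25), 60 samples in all. After dry-off, 6 cooled (CL) cows had shade, fans and soakers and 6 heat-stressed (HT) cows had shade only, so that D-3 preceded the treatments. Each treatment had a pen of its own, so treatment and pen cannot be told apart. All cows were pregnant and still in milk at D-3. The biopsies were trimmed of visible fat and hold a mixture of cell types, in which fewer cells of a type and less RNA per cell cannot be told apart. Cows are named CL1 to CL6 and HT1 to HT6.

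Total counts ranged from 20525083 to 26183990 per sample. Levels are given as CPM, counts scaled to a common library total, after TMM scaling, which estimates a factor for each library, and the errors are SD over cows. The mammary label was set beside the milk protein genes CSN1S1, CSN2 and LALBA and the luminal keratins KRT7 and KRT19, whose summed levels were at least 57.3 and 6.19 CPM in every library. No threshold was set for these sums, so they describe the libraries and do not test the label. Libraries stood apart in 3 ways. At D-3, CSN1S1, CSN2 and LALBA took 40.2% to 49.8% of all counts in 5 cows (CL1, CL3, CL5, HT3 and HT6), which had TMM factors of 0.300 to 0.419, and 0.191% to 8.03% in the other 7 cows, with factors of 1.02 to 1.21. Their share ran from 0.00982% to 7.45% at D3 and from 0.00669% to 14.5% at D7. By milk protein share, the D-3 libraries of the 7 cows thus lay within the range of D7, and D-3 is called late lactation here by its day. The D14 library of CL1 had a summed KRT7 and KRT19 level of 6.19 CPM, against 507.5 CPM or more in the other 59 libraries, and DCN, a fibroblast gene, at 5393 CPM. The D14 and D25 libraries of the cow labelled HT2 resembled the earlier libraries of HT4 (mean r of the deviations from the group means 0.465 and 0.555) more than those of HT2 (-0.174 and -0.0292), and those of the cow labelled HT4 resembled HT2 (0.324 and 0.409) more than HT4 (0.106 and 0.135). These cows share a treatment, so only results that pair, block or average libraries by cow, or that leave out HT2 or HT4 alone, rest on that labelling.

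ERBB3 rose between late lactation and D3. At D-3 the 12 cows ranged from 47.0 to 597 CPM with a median of 270.0, and at D3 from 307 to 1142 CPM with a median of 719. The mean rose from 266 ± 187 to 689 ± 256 CPM (SD, n = 12). The ranges overlapped, because the 5 cows named above had 47.0 to 147 CPM at D-3 and the other 7 had 247 to 597 CPM. The fitted log2 fold change for D3 vs. D-3 was 1.37 ± 0.34 (SE), a 2.59-fold rise, with a false discovery rate (FDR) of 0.00362 by edgeR's quasi-likelihood F-test adjusted over all tested loci. ERBB3 was higher at D3 in 10 of 12 cows. In this comparison 15.1% of all tested loci were called at an FDR of at most 0.05, with 6.03% of tested loci higher and 9.04% lower. KRT7, a keratin of the luminal epithelium, rose as well, with a log2 fold change of 1.31 (FDR 0.00412, edgeR) and 10 of 12 cows higher, while KRT19, the other paired luminal keratin, was not called (0.52, FDR 0.333, edgeR, 8 of 12 cows higher). Their part in the rise of ERBB3 was not tested.

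ERBB2 rose in the same comparison. Its level at D-3 ranged from 43.3 to 262 CPM with a median of 121, and at D3 from 120.3 to 366 CPM with a median of 248. The mean went from 129.9 ± 73.7 to 249.6 ± 68.6 CPM (SD, n = 12), a log2 fold change of 0.94 ± 0.23 (SE), or 1.92-fold, with an FDR of 0.00334 by edgeR's test. The groups overlapped here as well, and 8 of 12 cows were higher at D3. The 4 cows that were not, CL2, CL6, HT2 and HT5, all had at least 132 CPM at D-3.

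**Figure D1:**
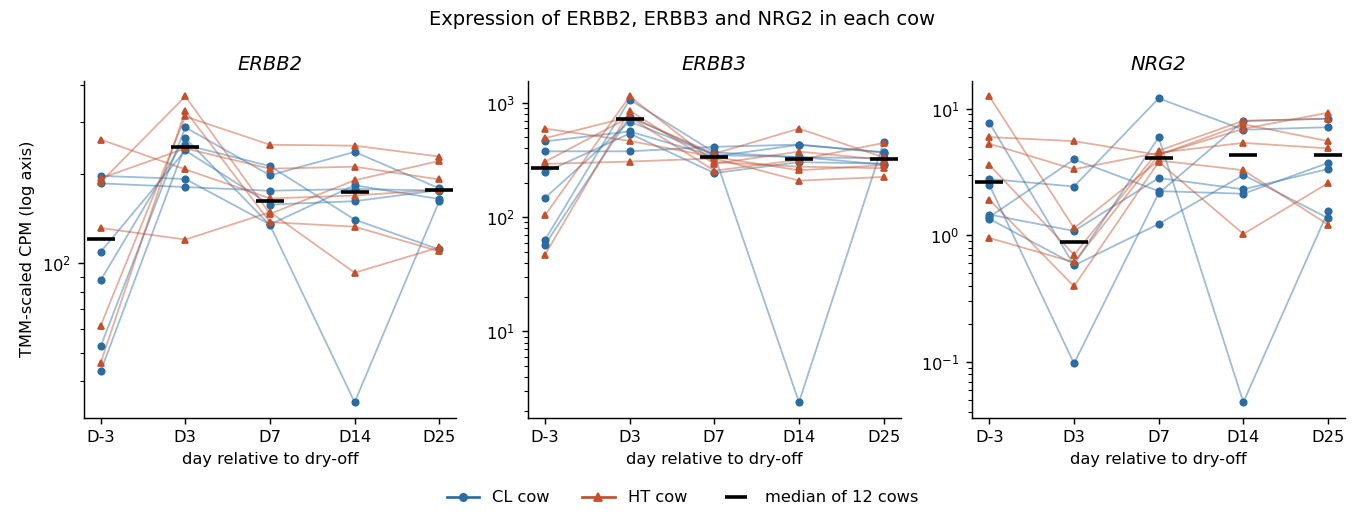
TMM-scaled CPM of ERBB2, ERBB3 and NRG2 (log axis) at each biopsy day, with a line for each of the 6 CL cows (blue circles) and 6 HT cows (red triangles) and a black bar for the median of the 12 cows. ERBB3 and ERBB2 medians peak at D3 (719 and 248 CPM), the NRG2 median is lowest there (0.892 CPM), and the D14 library of CL1 has the lowest value of all 60 for each gene (2.40 CPM for ERBB3).

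The rise of both receptors was uneven across cows and went with the share of milk protein transcripts at D-3. In the 5 cows with a share of 40.2% or more, ERBB3 at D3 was 4.66 to 18.2 times its D-3 level, with a median of 13.2. In the other 7 cows it was 0.779 to 2.46 times that level, with a median of 1.22. ERBB2 showed the same order, with ratios of 3.02 to 7.08 in the 5 cows and of 0.793 to 2.2 in the 7. Relative to its mean, ERBB3 varied less between cows at D3 than at D-3, with a coefficient of variation (SD over mean) of 37.2% against 70.5%. Its SD in CPM was larger at D3, at 256 against 187. At D3 ERBB3 was at 686 to 1142 CPM in the 5 cows (median 854) and at 307 to 756 CPM in the 7 (median 539).

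When the 5 cows were left out, a fit of the remaining 7 cows gave a log2 fold change for D3 vs. D-3 of 0.44 ± 0.22 (SE, FDR 0.94, edgeR) for ERBB3 and of 0.29 ± 0.19 (SE, FDR 0.94, edgeR) for ERBB2. In that fit 0 of 14714 loci were called, and 762 had an unadjusted p under 0.05. Since that fit called no locus at all, the lost calls do not single out the receptors. The split was made after seeing the data and also parts the cows by their D-3 levels of both receptors, and the part of milk protein abundance in the changes was not tested. Scaling by library size alone, under which the median log2 fold change of all tested loci was 0.35 against -0.01 with TMM, gave 1.35 for ERBB3 (FDR 0.0215) and 1.01 for ERBB2 (FDR 0.0285) in all 12 cows. With that scaling 2217 loci were called higher and 176 lower, against 887 higher and 1330 lower with TMM.

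**Figure D2:**
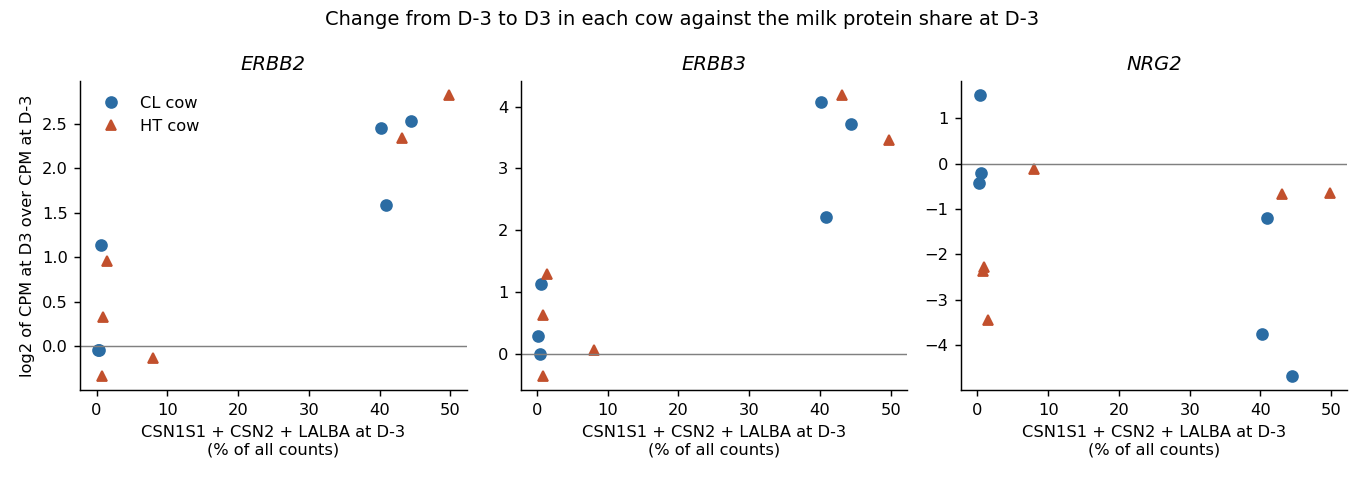
Log2 of the CPM at D3 over the CPM at D-3 (vertical axis) against the percentage of all counts from CSN1S1, CSN2 and LALBA at D-3 (horizontal axis), with 1 point for each of the 12 cows. The 5 cows with shares of 40.2% to 49.8% had ERBB3 ratios of 4.66 or more and ERBB2 ratios of 3.02 or more. NRG2, with the TMM scaling shown, was lower at D3 in 5 of these 5 cows and in 6 of the other 7. Scaled by library size alone, it was higher at D3 in HT6, HT3 and CL1 of the 5 and in HT5 and CL6 of the 7.

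EGFR, the founding receptor of the family (XLOC_012752), moved as ERBB2 did. Its lowest and highest cows had 61.0 and 239.7 CPM at D-3 and 83.5 and 276 CPM at D3, with 10 of 12 cows higher at D3. The log2 fold change was 0.86 ± 0.20 (SE, FDR 0.00242, edgeR). Of the 4 receptor genes of the family, 3 could be paired with a tested locus, and these were called higher at D3, as were 6.03% of all tested loci. Pairing itself came from the study's own comparisons of these samples, so this count is not independent evidence of a direction. ERBB4 was not paired and is not analysed here.

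NRG2 had few counts, and its levels at D3 were mostly lower than at D-3. At D-3 it ranged from 0.952 to 12.5 CPM (7 to 300 counts) with a median of 2.64, and at D3 from 0.0972 to 5.54 CPM (2 to 143 counts) with a median of 0.892. The mean was 3.96 ± 3.44 CPM at D-3 and 1.71 ± 1.72 CPM at D3 (SD, n = 12). The groups overlapped widely, but with TMM scaling NRG2 was lower at D3 in 11 of 12 cows. CL6 was the exception, with 1.39 CPM at D-3 and 3.97 CPM at D3. Scaled by library size alone, NRG2 was higher at D3 in HT6, HT3, CL1 and HT5 as well. Their log2 differences were then 0.75, 0.46, 0.27 and 0.08, so the agreement between cows depended on the scaling. The widest differences within a cow were those of CL5, from 2.50 to 0.0972 CPM, of CL3, from 7.75 to 0.577 CPM, and of HT4, from 12.5 to 1.14 CPM.

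Whether this difference was called depended on how the cows entered the fit. Without a cow term the log2 fold change was -1.22 ± 0.48 (SE) with an FDR of 0.0778 by edgeR's test, above the threshold. With cow as a block it was -1.36 ± 0.48 (SE) with an FDR of 0.0374, in a fit where 21.5% of all loci were called, with 12.9% lower. The blocked call did not hold in every setting, since leaving out each cow in turn gave FDR values of 0.00915 to 0.148 and it was lost without CL3, CL5, HT1, HT2, HT3, HT4 or HT6. Blocked and scaled by library size alone, the log2 fold change was -0.90 (FDR 0.143). Without a block, in the 7 cows of low milk protein share, it was -0.95 ± 0.56 (SE, FDR 0.94, edgeR).

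At D7 the means of the receptors lay below those at D3 and the mean of NRG2 above it. ERBB3 ranged from 243 to 413 CPM at D7, with a median of 338.5 and a mean of 328 ± 48 CPM (SD, n = 12), and was lower than at D3 in 10 of 12 cows. The other 2 cows, CL6 and HT5, went from 377 to 413 and from 307 to 327 CPM. Between cows the spread narrowed from a coefficient of variation of 70.5% at D-3 and 37.2% at D3 to 14.6% at D7. The fitted log2 fold change was -1.07 ± 0.34 (SE) with an FDR of 0.0653 by edgeR's test, above the threshold, and 0.0585 with cow as a block. KRT7 fell over the same days (-1.17, FDR 0.0367, edgeR), with 12 of 12 cows lower. Here 2.92% of all loci were called, and 5.99% with the block. Without the D14 library of CL1, which enters this fit through the shared estimate of the spread, the FDR was 0.0114, and with tagwise dispersions, which the study's methods name, it was 0.0336.

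ERBB2 at D7 ranged from 134.6 to 251 CPM, with a median of 162 and a mean of 173 ± 37.3 CPM (SD, n = 12). It was lower than at D3 in 11 of 12 cows, HT5 again being the exception. The log2 fold change was -0.53 ± 0.23 (SE, FDR 0.212, edgeR). A fit of the 24 samples of D3 and D7 alone gave -0.54 with an FDR of 0.0415. EGFR was likewise lower in 11 of 12 cows, at -0.49 ± 0.20 on the log2 scale (SE, FDR 0.182, edgeR).

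NRG2 at D7 ranged from 1.23 to 12.1 CPM with a median of 4.11 and was higher than at D3 in 10 of 12 cows. The log2 fold change was 1.34 ± 0.48 (SE, FDR 0.1105, edgeR) without a block. With cow as a block it was 1.57 ± 0.47 (SE, FDR 0.0376, edgeR), where 2.09% of all loci were called higher, and this call was lost when any cow other than CL6 or HT5 was left out, with FDR values of 0.0136 to 0.0911. The HT cows lay close together at D7, at 3.80 to 4.66 CPM, and the CL cows far apart, at 1.23 to 12.1 CPM.

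**Figure D3:**
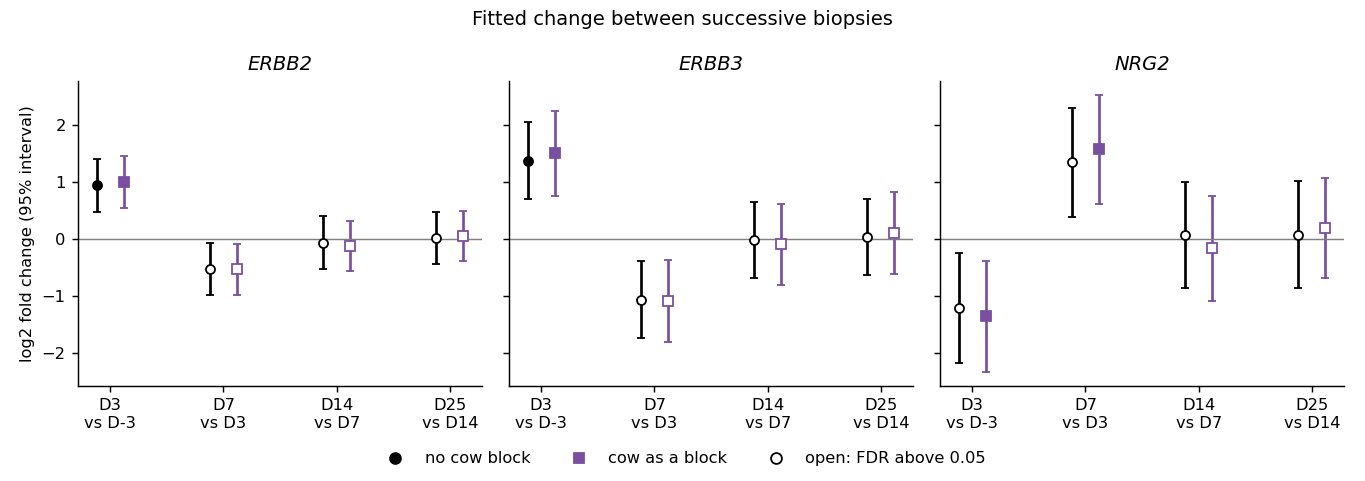
Fitted log2 fold changes between successive biopsies with 95% intervals, without a cow term (black circles) and with cow as a block (purple squares); filled symbols have an FDR of at most 0.05 and open symbols do not. ERBB2 and ERBB3 are called for D3 vs. D-3 in both fits, NRG2 is called for that step and the next with the block only, and all intervals for D14 vs. D7 and D25 vs. D14 include 0.

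After D7 the means of the 3 genes differed between biopsies by less than their SD. ERBB3 had means of 322.5 ± 143 CPM at D14 and 331.5 ± 68.6 CPM at D25, ERBB2 of 165 ± 60.1 and 168 ± 39.5 CPM, and NRG2 of 4.54 ± 2.89 and 4.77 ± 2.93 CPM (SD, n = 12). The fitted log2 fold changes for D14 vs. D7 were -0.06 (95% interval -0.52 to 0.39) for ERBB2, -0.03 (-0.69 to 0.64) for ERBB3 and 0.07 (-0.87 to 1.0) for NRG2. Those for D25 vs. D14 were 0.02 (-0.44 to 0.48), 0.04 (-0.63 to 0.71) and 0.07 (-0.86 to 1.01). None of the 6 was called by edgeR's test, in comparisons where 0% and 0.0612% of all loci were. For D14 vs. D7, edgeR called 0 loci with 257 at an unadjusted p under 0.05, and DESeq2 called 0 (245 at an unadjusted p under 0.05).

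Neither did any of the 3 genes differ by the test between D-3 and the later biopsies. ERBB2 was 0.41 ± 0.23 higher at D7 on the log2 scale (SE, FDR 0.254), 0.35 ± 0.23 at D14 (FDR 0.294) and 0.37 ± 0.23 at D25 (FDR 0.297, all edgeR). ERBB3 was at 0.30, 0.28 and 0.32 with FDR values of 0.604, 0.597 and 0.564. NRG2 was at 0.13, 0.19 and 0.27 with FDR values of 0.902, 0.809 and 0.753. These comparisons called 8.46%, 19.5% and 13.1% of all loci.

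Ordered by their means, the days ran D3, D25, D7, D14 and D-3 for ERBB3 and D3, D7, D25, D14 and D-3 for ERBB2. The 4 days other than D3 followed each other by less than their SD in both genes. For NRG2 the order was D25, D14, D7, D-3 and D3. Cow by cow, ERBB3 was highest at D3 in 9 of 12 cows, ERBB2 in 8 and EGFR in 7, and NRG2 was lowest at D3 in 9. The F-test over all 5 time points gave an FDR of 0.0214 for ERBB2, 0.00683 for ERBB3 and 0.106 for NRG2 (edgeR), in a test that called 21% of all loci.

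The D14 library of CL1 had the lowest level of each of these genes, far from the other libraries for ERBB3. ERBB3 was at 2.40 CPM there (50 counts), against 303 to 432 CPM in the other CL cows at D14. ERBB2 was at 34.0 CPM (709 counts), against 43.3 CPM in the next lowest library, and NRG2 at 0.0480 CPM (1 count), against 0.0972 CPM (2 counts). The same cow had 351.5 CPM of ERBB3 at D7 and 453 CPM at D25. The keratin and DCN levels of this library are given above, and their part in these values was not tested.

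Because a ratio of 2 genes within a sample does not depend on how samples are scaled to each other, ERBB3 was also set against ERBB2. The log2 ratio of their CPM is read here only as a change between days, since the lengths of the transcripts were not known. It rose by a mean of 0.59 ± 0.63 (SD, n = 12 cows) from D-3 to D3 and was higher in 10 of 12 cows (two-sided exact sign-flip test, p = 0.00195, adjusted p = 0.0144 over 21 ratio tests). From D3 to D7 it fell by 0.48 ± 0.44 (SD) and was lower in 10 of 12 cows (exact p = 0.00293, adjusted p = 0.0144). ERBB3 thus changed by more than ERBB2 in both steps. The rise again differed between cows, at 0.63 to 1.84 in the 5 cows of high milk protein share and at -0.03 to 0.34 in the other 7. For D7 vs. D-3 the mean difference was 0.11 ± 0.41 (SD, adjusted p = 0.599 by the exact test).

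Set against the luminal keratins KRT7 and KRT19, ERBB3 rose by 0.89 ± 0.92 on the log2 scale (SD, n = 12) from D-3 to D3, with 10 of 12 cows higher (exact sign-flip p = 0.00342, adjusted p = 0.0144). The fitted log2 fold change of ERBB3 for this step was 1.37, against 1.31 for KRT7 and 0.52 for KRT19. ERBB3 thus lay further from KRT19 than from KRT7, and it was not tested against each keratin alone. The change of the ratio was 1.22 to 2.41 in the 5 cows of high milk protein share and -0.26 to 0.46 in the other 7. From D3 to D7 this ratio differed by -0.07 ± 0.51 (SD, exact p = 0.667, adjusted p = 0.798) and the test did not separate ERBB3 from the keratins over those days. ERBB2 against the keratins differed by 0.30 ± 0.54 from D-3 to D3 (SD, adjusted p = 0.151 by the exact test). It was higher than at D-3 by 0.72 ± 0.72 at D7 (SD, 10 of 12 cows, exact p = 0.00342, adjusted p = 0.0144). At D25 it was higher by 0.79 ± 0.71 (SD, 12 of 12 cows), with an exact p of 0.000488, the smallest the test can give, and an adjusted p of 0.0103. This last ratio was 1.20 to 2.08 higher in the 5 cows of high milk protein share and 0.02 to 0.38 higher in the other 7. KRT7 and KRT19 were the only 2 of the 6 luminal markers that could be paired with a locus. KRT19 itself was lower at D7 than at D-3 in 11 of 12 cows, with a log2 fold change of -0.48 (FDR 0.3795, edgeR). For D25 vs. D-3 KRT19 was at -0.73 (FDR 0.148, edgeR), with 10 of 12 cows lower, and KRT7 at 0.10 (FDR 0.877). ERBB2 itself was at 0.37 (FDR 0.297), with 7 of 12 cows higher, so the gain of its ratio at D25 also holds the lower KRT19.

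**Figure D4:**
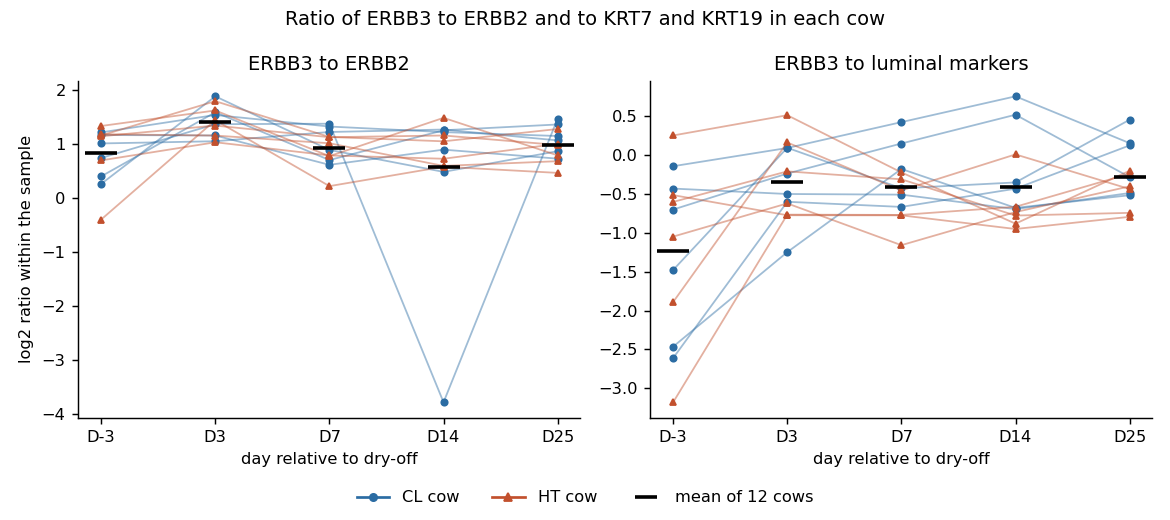
Log2 ratio within each sample of ERBB3 to ERBB2 (left) and of ERBB3 to the mean of KRT7 and KRT19 (right) at each biopsy day, with a line for each CL cow (blue circles) and HT cow (red triangles) and a black bar for the mean of 12 cows. The left ratio rises by 0.59 to D3 and falls by 0.48 to D7; the right one rises by 0.89 to D3 and then differs little, and the D14 value of CL1 on the left rests on 50 counts of ERBB3.

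The second question of the study was whether heat stress changed expression at any biopsy day. ERBB2 had means of 169 ± 32.5 CPM in CL and 176.5 ± 44.4 CPM in HT cows at D7 (SD, n = 6 each). ERBB3 had means of 344 ± 55.9 and 312 ± 36.5 CPM, and NRG2 of 4.41 ± 4.09 and 4.25 ± 0.334 CPM. In every one of these pairs the ranges of the treatments overlapped. The log2 fold changes of HT over CL at D7 were 0.06 (95% interval -0.32 to 0.43), -0.14 (-0.43 to 0.15) and -0.06 (-1.04 to 0.93) for ERBB2, ERBB3 and NRG2.

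The other days gave no call either. For ERBB2 the log2 fold changes of HT over CL ran from 0.06 at D7 to 0.39 at D-3, before the treatments began. For ERBB3 they ran from -0.16 at D25 to 0.45 at D-3. For NRG2 they ran from -0.06 at D7 to 0.84 at D-3. The narrowest interval was that of ERBB3 at D7, which runs from -0.43 to 0.15 on the log2 scale. In the fits made here, no member reached the less stringent threshold of the study. It asked for a log2 difference of 0.5 or more and an unadjusted p of 0.005 or less.

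In these comparisons edgeR called 0% of loci at any day, with 298, 97, 672, 247 and 333 loci at an unadjusted p under 0.05 from D-3 to D25, and DESeq2 called 0, 0, 3, 0 and 1. The less stringent threshold was met by 0.0544%, 0.0204%, 0.319%, 0.0544% and 0.0408% of loci. For the interaction of treatment and time the FDR was 1 for each member, with 0 loci called by edgeR (85 at an unadjusted p under 0.05) and 0 by DESeq2.

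With each cow counted once, as its mean log2 CPM over D3, D7, D14 and D25, HT exceeded CL by 0.12 for ERBB2 (two-sided exact permutation p = 0.567, n = 6 against 6). The difference was 0.19 for ERBB3 (exact permutation p = 0.671) and 0.54 for NRG2 (exact permutation p = 0.281). The CL means include the D14 library of CL1, and for ERBB3 the SD between cow means was 0.68 in CL against 0.31 in HT. These cow means were not compared without that library, so the sign of the ERBB3 difference may rest on it. Without the D14 library of CL1, the D14 log2 fold change of HT over CL went from 0.15 ± 0.69 to -0.12 ± 0.24 for ERBB3 and from 0.17 ± 0.37 to -0.05 ± 0.23 for ERBB2 (SE), with FDR values of at least 0.99 in edgeR.

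**Figure D5:**
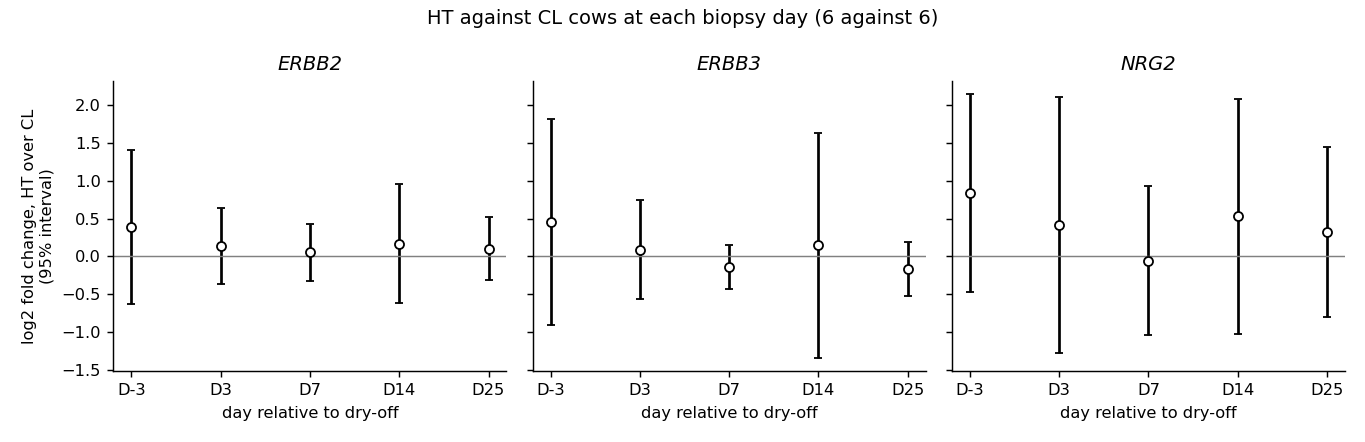
Log2 fold change of HT over CL cows with its 95% interval at each biopsy day, for 6 cows against 6, in ERBB2, ERBB3 and NRG2. All 15 intervals include 0, and the narrowest is that of ERBB3 at D7 (-0.43 to 0.15).

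Other genes of the pathway were described from lists of ligands, proteases, signalling proteins and inhibitors. Symbols were known only for loci in the part held here of the study's own comparisons of these samples. The genes that could be paired had thus been chosen on these samples, and their counts are not independent evidence of a direction. Over all tested loci the median log2 fold change was -0.01 for D3 vs. D-3 and 0.00 for D7 vs. D3.

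Of 11 ligand genes, NRG2 alone was paired. Of 4 proteases that release such ligands from the membrane, ADAM17 was paired, and it rose from 33.8 ± 10.1 to 50.5 ± 11.9 CPM (SD, n = 12) between D-3 and D3, a log2 fold change of 0.57 (FDR 0.000836, edgeR). It was higher in 9 of 12 cows. For D7 vs. D3 its log2 fold change was -0.26 (FDR 0.256).

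Of 44 adaptors and effectors, 15 were paired and tested. For D3 vs. D-3, 3 were called higher, 1 lower and 11 were not called, with a median log2 fold change of 0.24, where 6.03% of all tested loci were called higher and 9.04% lower. With cow as a block 6 were called higher and 2 lower, where 21.5% of all loci were called. The 3 called higher without the block were MAPK3, a terminal kinase of the MAP kinase cascade (0.72, FDR 0.000705), NCK2, an adaptor that links receptors to the cytoskeleton (0.55, FDR 0.0201), and PTPN11, a phosphatase needed for full RAS activation (0.29, FDR 0.0253). The MAPK3 locus joined 2 ENSEMBL genes, so its reads cannot be assigned to MAPK3 alone. The gene called lower was STAT5B, a transcription factor of prolactin and growth hormone signalling (-0.57, FDR 0.0192), which fell in 10 of 12 cows.

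For D7 vs. D3, 0 of the 15 were called higher, 4 lower and 11 were not called, with a median of -0.32, where 2.92% of all tested loci were called. With cow as a block 1 was called higher and 5 lower, where 5.99% of all loci were. HRAS, a small GTPase, was lower at D7 in 12 of 12 cows (-0.66, FDR 0.0161). MAPK3 was lower in 11 of 12 (-0.60, FDR 0.0209) and CDKN1B, a cell cycle inhibitor, in 10 of 12 (-0.27, FDR 0.0419). EIF4EBP1, a repressor of translation, had a log2 fold change of -1.55 (FDR 0.0136), although 7 of 12 cows were higher at D7, since the mean at D3 of 195 CPM had an SD of 208. GAB1, a docking protein of receptor kinases, was next by p (-0.38, FDR 0.0552, and -0.37, FDR 0.0238, with cow as a block).

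Of 14 inhibitors and genes of receptor turnover, SPRY2 and SPRY4, which dampen signalling from receptor kinases, were paired. SPRY4 fell from 28.1 ± 14.6 to 11.7 ± 4.51 CPM (SD, n = 12) between D-3 and D3, a log2 fold change of -1.26 (FDR 4.79e-05, edgeR) with 11 of 12 cows lower. It rose by 0.97 from D3 to D7 (FDR 0.00771), with 11 of 12 cows higher. Of these 3 days, SPRY4 had its lowest mean at D3, the day of the highest receptor means. SPRY2 was at -0.12 (FDR 0.534) and then -0.02 (FDR 0.969) on the log2 scale.

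Of 7 genes that neighbour ERBB2 in mammalian genomes, GRB7, an adaptor that binds ERBB receptors, and MIEN1 were paired. GRB7 had 18.2 ± 10.8 CPM at D-3 and 31.8 ± 11.2 CPM at D3 (SD, n = 12), a log2 fold change of 0.79 that was not called (FDR 0.067, edgeR) but was called with cow as a block (0.88, FDR 0.018). It was lower at D7 than at D3 in 12 of 12 cows (-0.74, FDR 0.183). MIEN1 was at 0.10 (FDR 0.524) and then -0.17 (FDR 0.371) on the log2 scale.

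The patterns of the 3 genes over the 60 samples were compared with those of 2845 other loci with a symbol, by Pearson's r of log2 CPM. These correlations are descriptions over samples that share cows, days and libraries. ERBB3 was most like DDR1, a collagen receptor kinase (r = 0.923), CLDN4, a tight junction claudin (0.913), GRB7 (0.913), KLC3, a kinesin light chain (0.906), and PERP, a desmosomal protein (0.896). With the group means removed these were 0.915, 0.907, 0.908, 0.895 and 0.885. Without the D14 library of CL1 they were 0.843, 0.8095, 0.818, 0.837 and 0.770, so that a single library carried part of each value.

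ERBB2 was most like ATP9A, a membrane lipid transporter (r = 0.886), PPL, the desmosome-linked periplakin (0.857), GRB7 (0.853), DDR1 (0.844) and KHNYN (0.843). Between ERBB2 and ERBB3 r was 0.865, or 0.838 with the group means removed and 0.898 without the D14 library of CL1. NRG2 had no close match, with PSD2 (0.663), MSTN, which encodes myostatin (0.656), GNAO1, a G protein subunit (0.642), CITED4 (0.614) and RHBG, an ammonium transporter (0.613) as the nearest. Its r with ERBB2 was -0.113 and with ERBB3 0.0025. Without the D14 library of CL1 these were -0.35 and -0.485, so that the relation of NRG2 to the receptors depended on that library.

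The receptors were also set beside marker genes of other cell types. Over the 60 samples r with KRT7 was 0.920 for ERBB3 and 0.805 for ERBB2, and r with KRT19 was 0.651 and 0.431. Without the D14 library of CL1 these were 0.820 and 0.831 for KRT7, and 0.155 and 0.169 for KRT19. With KDR, an endothelial receptor, r was -0.751 and -0.763, or -0.781 and -0.726 without that library. Several of these markers had other means at D3 than at D-3. The myoepithelial gene ACTA2 had 477 ± 219.7 CPM at D-3 and 837 ± 376 CPM at D3, and the 4 paired myoepithelial genes (KRT5, ACTA2, MYH11 and CNN1) summed to 440.0 to 2661 and to 887 to 3438 CPM (SD, n = 12). KDR had 187 ± 119 and 96.5 ± 30.6 CPM, and the adipocyte gene ADIPOQ 14.3 ± 7.44 and 8.0 ± 5.48 CPM. DCN had 695 ± 244 and 755.5 ± 275 CPM. MYH2, a myosin of skeletal muscle, had 0.791 ± 0.795 and 5.87 ± 5.35 CPM. KRT7 and KRT19 summed to 698 to 1796 CPM at D-3 and to 732 to 5218 CPM at D3. The part of these cell types in the changes of the receptors was not tested. No leukocyte or Schwann cell marker of the lists could be paired with a locus, so those cells were not analysed here.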

How the data were processed

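RNA was sequenced from 60 mammary biopsies of 12 cows, 6 CL and 6 HT. The deposited values are read counts per locus, made by the authors with Trim Galore 0.4.1, TopHat2 2.0.13, Cufflinks 2.2.1 and HTSeq on poly(A)-selected single-end libraries. The paper names the bosTau7 build and the submitters' processing notes UMD3.1. Counting was not stated to use strand. The members and lists were chosen with earlier results of these data known. Each of 25223 loci entered once, and the 14714 loci that reached 1 CPM in 6 or more samples were tested. Symbols came from the part of the supplementary tables held here, which pairs 3033 loci.

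Depth was 20525083 to 26183990 counts per sample, and depth limits NRG2 the most, with as few as 1 count in a library. Time points were compared in edgeR 4.0.16 (R 4.3.3) by quasi-likelihood F-tests on TMM-scaled counts with trended dispersions, fitted to the 60 samples together, 1 mean per day, without a cow term, as the study's methods name none. HT and CL were compared within each day. FDR values are Benjamini-Hochberg adjusted, and the threshold was 0.05. Intervals cover 95%. Log2 CPM for ratios and correlations used a prior count of 2, tested by exact sign-flip or permutation tests over cows in Python 3.11.15 (numpy 2.4.6, pandas 2.3.3, scipy 1.17.1). Figures used matplotlib 3.10.9. Cow came from the subject in the labels. Deviations from the group means correlated at a mean r of 0.293 between libraries of a cow (120 pairs) and -0.0253 between cows on different days (1320 pairs), so cow as a block is given beside the results whose calls it changes. Genes named outside the members are the paired receptors and ligands, up to 5 genes with the smallest p in each other list, and the 5 loci most correlated with each member. A gene that this rule names is not reported here. Alternatives were RLE factors, library size only, TMM without milk protein genes, no low-count filter, tagwise dispersions, DESeq2 1.42.0, fits of fewer samples and each cow left out. The milk protein genes left out of TMM were CSN1S1, CSN2 and LALBA, the 3 of 6 listed that could be paired. The fits were tested on simulated counts.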

Additional observations from a re-analysis of the deposited data

Results flagged for a closer look

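For each member, the 6 CL and the 6 HT cows of each day were searched for a lowest or highest cow that stood far from the rest by Dixon's ratio. The ratio was taken on CPM and not on a log scale, where the flags may differ. For normally distributed values, chance alone gives such a cow in about 1 in 20 groups. Whether these values are so distributed was not tested. Of 30 groups, 3 held such a cow, all of them CL. ERBB3 of CL1 at D14 was 2.398 CPM against 303 to 432 CPM in the other 5 cows. ERBB2 of CL5 at D25 was 111.4 CPM against 162 to 179 CPM in the others. NRG2 of CL3 at D-3 was 7.752 CPM (77 counts), against 1.35 to 2.79 CPM.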

How the results depend on the processing

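The rise of ERBB2 and ERBB3 from D-3 to D3 kept its direction and its call in 39 of 41 alternatives for each gene. The exceptions were the 2 fits without the 5 cows of high milk protein share, chosen after seeing the data and calling 0 loci, which gave 0.29 (FDR 0.94) and, with cow as a block, 0.27 (FDR 0.578) for ERBB2, and 0.44 (FDR 0.94) and, with the block, 0.435 (FDR 0.506) for ERBB3. NRG2 was called for D3 vs. D-3 in 12 of 41 alternatives and for D7 vs. D3 in 7 of 41, ERBB3 for D7 vs. D3 in 8 of 41 and ERBB2 in 1 of 41, with no call reversed. No call of HT against CL was made in 258 alternatives (lowest FDR 0.61).

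For NRG2 at D3 vs. D-3 the log2 fold change was -1.36 with cow as a replicate block, -1.35 with the block and RLE factors, -1.36 with the block and without the CL1 library of D14, -1.30 with the block and without the D14 and D25 libraries of HT2 and HT4, and -1.21 in DESeq2 (FDR 0.0489). At D7 vs. D3 these were 1.57, 1.57, 1.52 and 1.60, with DESeq2 above the threshold. Without HT2 and HT4, NRG2 was -0.72 (FDR 0.411). With each cow left out in turn it was -1.49 to -0.83 and 1.13 to 1.67, or with the block -1.72 to -0.997 and 1.30 to 1.91. With the block, calls of NRG2 were made at D3 vs. D-3 without CL1 (-1.37), CL2 (-1.42), CL4 (-1.43), CL6 (-1.72) or HT5 (-1.55), and at D7 vs. D3 without CL6 (1.91) or HT5 (1.81). For ERBB3 at D7 vs. D3, calls were made with tagwise dispersions (-1.07), the 2 time points alone (-1.07), without the CL1 library of D14 (-1.07, with the block -1.08) and in DESeq2 (-1.07), and each cow left out gave -1.16 to -0.98, or -1.18 (without HT5) to -0.98 with the block, and -1.09 with the block without CL1. ERBB2 was called at D7 vs. D3 with those 2 time points alone (-0.54), at D7 vs. D-3 with the block and without HT2 and HT4 (0.71) or with the block and library size (0.77), and at D25 vs. D-3 with the block and library size (0.73). The ratio of ERBB3 to the keratins at D7 vs. D-3 without HT2 and HT4 was 1.03 (adjusted p = 0.041). The cause of these changes was not tested.

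Loci called for D3 vs. D-3 numbered 2217 (887 higher, 1330 lower), 3164 with cow as a block, 845 with the 2 time points alone, 1230 to 2557 with each cow left out (1230 without HT6, 1254 without CL3, 1258 without CL5 and 1388 without HT3), 4957 with the block and library size, and 2217 higher and 176 lower with library size alone. Depth limited NRG2, with 1 to 333 counts per library.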
